A study of Mus musculus with 16 samples.

Results

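The regions described here are 902 mouse transcripts of the NONCODE catalogue, each listed as a single unbroken interval that touches no protein-coding gene. They were taken from 51024 listed transcripts in 3 steps. The ID had to start with NONMMUT, the interval had to be as wide as the stated length to within 1 base, and it had to overlap no protein-coding gene body of GENCODE M21 (GRCm38), which left 14686 transcripts. Of these, 13784 fell under the level threshold (4 or more of the 16 libraries at 1 FPKM or above), and 902 passed. FPKM is a read count scaled by transcript length and library depth. The threshold used measured values of all 4 groups without regard to group, and the levels of the members are given as a description. At its edge, the fourth-highest FPKM was 1.0007 for NONMMUT017487.2 and 1.0008 for NONMMUT152911.1, just inside, and 0.9977 for NONMMUT090275.1 and 0.9993 for NONMMUT089271.1, just outside. Only 3 members reached 1 FPKM in a single group, 2 of them on high-fat feed and 1 on ordinary feed. These 3 could pass only through the group in which they were high, so their differences from the other groups were fixed by the choice and support nothing here; 2 are among the members counted as higher on high-fat feed and 1 among those counted as lower.

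The study sequenced liver RNA of C57BL/6J mice, a common inbred laboratory strain, in 4 groups of 4 libraries. One group had ordinary feed and 3 had high-fat feed, of which 1 had no drug, another was gavaged daily with 100 mg/kg resveratrol, a polyphenol of grapes, and the last with 200 mg/kg metformin, a diabetes medicine. All animals were labelled postnatal day 21. The labels name no animal, sex, cage, litter or batch, so p-values measure only the spread between these libraries, which may be partly technical. The sample titles of the high-fat group share 1 prefix, the other groups carry more than 1, and no source used here explains it. Whatever the prefix marks cannot be told apart from high-fat feed without drug. The coding genes that define hepatocytes were not analysed here, so the tissue label was not checked against them.

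Intergenic transcripts arise in several ways. Some are genes of their own, such as long intergenic non-coding RNAs and the primary transcripts from which microRNAs are cut. Others are stretches of a longer RNA that a catalogue lists piece by piece, RNA read through past the end of a coding gene, RNA begun near a promoter in the opposite direction, or pseudogene copies of coding genes. A single-interval entry has no splice junction to fix its ends, and the counting here had no stated strand. Reads of a member and of an overlapping or antisense transcript therefore cannot be told apart, and a coding gene named beside a member gives its position, not that gene's level. In bulk tissue, fewer cells of a type and less RNA per cell cannot be told apart either.

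In all, 4 members held 5 RefSeq microRNA hairpins, and their mature arms are shown because the interval of each member spans the hairpin of a named microRNA. The sequences are from RefSeq (GRCm38.p6), 5′ to 3′, with the seed, bases 2 to 8, in capitals.
mmu-miR-802-5p: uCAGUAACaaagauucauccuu
mmu-miR-802-3p: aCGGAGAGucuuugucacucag
mmu-miR-30c-5p: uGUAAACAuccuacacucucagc
mmu-miR-30c-2-3p: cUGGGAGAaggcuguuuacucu
mmu-miR-192-5p: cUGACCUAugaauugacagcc
mmu-miR-192-3p: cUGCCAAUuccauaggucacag
mmu-miR-194-5p: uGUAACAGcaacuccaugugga
mmu-miR-194-2-3p: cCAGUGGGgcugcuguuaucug
mmu-miR-8091: aGGAGUGAgugguaagcuggug
No 2 of these arms share a seed. The Mir802 hairpin lies at chr16:93369720-93369816 on the plus strand, inside NONMMUT144470.1, and is shown with both mature arms in capitals.
Mir802 hairpin: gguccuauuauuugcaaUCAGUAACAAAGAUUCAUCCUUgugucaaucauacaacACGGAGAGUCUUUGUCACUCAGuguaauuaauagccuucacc
The stretch before the start of Onecut1 is shown because the nearer of the pair of members beside it runs into it. It lies at chr9:74861671-74861920 on the plus strand (RefSeq, GRCm38.p6), and the 64 capitals are the bases inside NONMMUT153839.1.
Onecut1, 250 bases before the start: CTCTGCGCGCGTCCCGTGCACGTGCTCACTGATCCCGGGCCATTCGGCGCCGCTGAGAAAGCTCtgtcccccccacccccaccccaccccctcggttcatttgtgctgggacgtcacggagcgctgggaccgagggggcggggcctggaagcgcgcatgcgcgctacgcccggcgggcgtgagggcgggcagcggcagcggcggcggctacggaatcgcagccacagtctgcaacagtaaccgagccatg
The last 2 are members inside GENCODE M21 exons that nearly match a coding transcript, and their capitals mark the bases that differ from it. NONMMUT154175.1, at chrX:36668633-36668857, lies wholly in the pseudogene Gm6274 (plus strand). It aligned to Rpl7, a ribosomal protein gene, over 225 bases with 2 substitutions. Gm43444 holds NONMMUT114031.1 and aligned to Glud1, glutamate dehydrogenase, over 222 bases with 2 substitutions and 2 gap bases; the 30 bases around both substitutions, chr3:121020582-121020611 on the minus strand, are shown.
Gm6274: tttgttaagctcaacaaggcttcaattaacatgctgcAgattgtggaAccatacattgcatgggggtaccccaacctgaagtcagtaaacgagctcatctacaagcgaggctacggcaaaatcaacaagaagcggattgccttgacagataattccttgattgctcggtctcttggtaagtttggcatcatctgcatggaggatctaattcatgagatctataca
Gm43444: caaatgagttattgCTgttttacatcaaaa

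The libraries held 17.2 to 31.1 M reads (M, mega), and the members took 2.04% to 5.21% of the reads on listed transcripts. The median member had 27.0 to 55.0 reads in a library. Between 579 and 765 members were at 1 FPKM or more in 15 of the libraries, while high-fat library 4 had 487, against 639 to 670 in the other high-fat libraries. The median ratio of that library to the typical library over all tested features was 0.691, against 0.885 to 1.15 elsewhere. Results that rest on this library are therefore given with and without it.

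The members were mostly short and of low level. Their median length was 1032 bases (202 to 28336) and their median mean FPKM over 16 libraries was 1.60, with 191 members under 1, 553 from 1 to 5, 127 from 5 to 20 and 31 at 20 or more. In all, 306 members were at 1 FPKM or more in all 16 libraries and 220 in 4 to 7. The gap to the nearest coding gene had a median of 18.7 kb and reached 2084 kb, and 415 members lay before the start of that gene and 487 past its end. Non-coding genes were nearer. The median gap to an exon of any GENCODE gene was 1.61 kb, 411 members (45.6%) overlapped the body of a non-coding gene, 247 of them a lincRNA gene, and 66 lay over a processed pseudogene.

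Many members were pieces of the same stretch. Joining members less than 20 kb apart gave 502 runs, of which 396 held 1 member and 17 held 5 or more, with 295 members (32.7%) between them. The 2 longest runs, on chromosomes 12 and 6, held 165 members (18.3%). Adjacent members of a run had a median correlation of 0.75 over the 16 libraries (400 pairs, Pearson r on log2(FPKM + 1)), and 0.73 after each library's median over the tested features was subtracted. These pairs share libraries and depth, and some share reads, so members of a run are not independent of each other.

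On high-fat feed, 121 members fell and 43 rose against ordinary feed, 164 in all (18.2% of 902), at a limma adjusted p under 0.05 over the 7413 features tested. Of all tested features, 14.6% were called, 2.83% higher and 11.8% lower, against 4.77% higher and 13.4% lower for the members. The median member changed by -0.12 on the log2(FPKM + 1) scale, against -0.16 for all features. The 4 values of 1 group lay wholly above those of the other for 208 members (23.1%, background 20.9%), of which 143 were also called. The members thus stood near the background in total, with a somewhat higher share of rises. This split depended on the scaling of the libraries: dividing each library by its median ratio gave 81 higher and 58 lower, with a median of 0.05 for the members and -0.002 for all features. Without high-fat library 4 the calls were 41 higher and 47 lower, with both changes 64 higher and 22 lower. Over all features tested the calls turned the same way, from 210 higher and 875 lower to 447 and 366 with median-ratio scaling, 183 and 422 without high-fat library 4, and 311 and 220 with both.

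Among the transcripts that rose, the largest called change lay beside Aacs, which activates acetoacetate for lipid synthesis. NONMMUT149179.1, 4.06 kb past its end (chr5:125521473-125522446), had 0.119, 0.1201, 0 and 0.204 FPKM on ordinary feed and 3.53, 2.57, 2.92 and 2.25 on high-fat feed. With resveratrol it had 0.0970, 0.214, 0.197 and 2.24 FPKM, and with metformin 0.567, 1.05, 0.312 and 0.692. Every high-fat library without drug was above the other 12 libraries, and resveratrol library 4 came close to them. The change from ordinary to high-fat feed was 1.77 (SE 0.27, limma adjusted p = 0.00254). A neighbour, NONMMUT149180.1, was at 0.161 ± 0.105 FPKM on ordinary feed and 1.67 ± 0.702 on high-fat feed (SD, n = 4), but it is 1 of the 3 members that reached 1 FPKM in a single group, so this is a description only. Near Bri3bp lay NONMMUT149177.1, in a separate run on the same chromosome and 8861 bases from Aacs. It rose from 0.0608 ± 0.0735 to 1.71 ± 0.882 FPKM (a change of 1.29, SE 0.24, limma adjusted p = 0.00651). Its values were 0, 0, 0.0949 and 0.148 on ordinary feed and 2.24, 0.672, 2.61 and 1.32 on high-fat feed, so the groups did not overlap. It stood at 0.0941 to 0.217 FPKM in the resveratrol libraries and at 0.212, 1.24, 0.0864 and 0.313 with metformin, where library 2 lay above the lowest high-fat library. It passed the level threshold through 3 high-fat libraries and that metformin library.

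**Figure D1:**
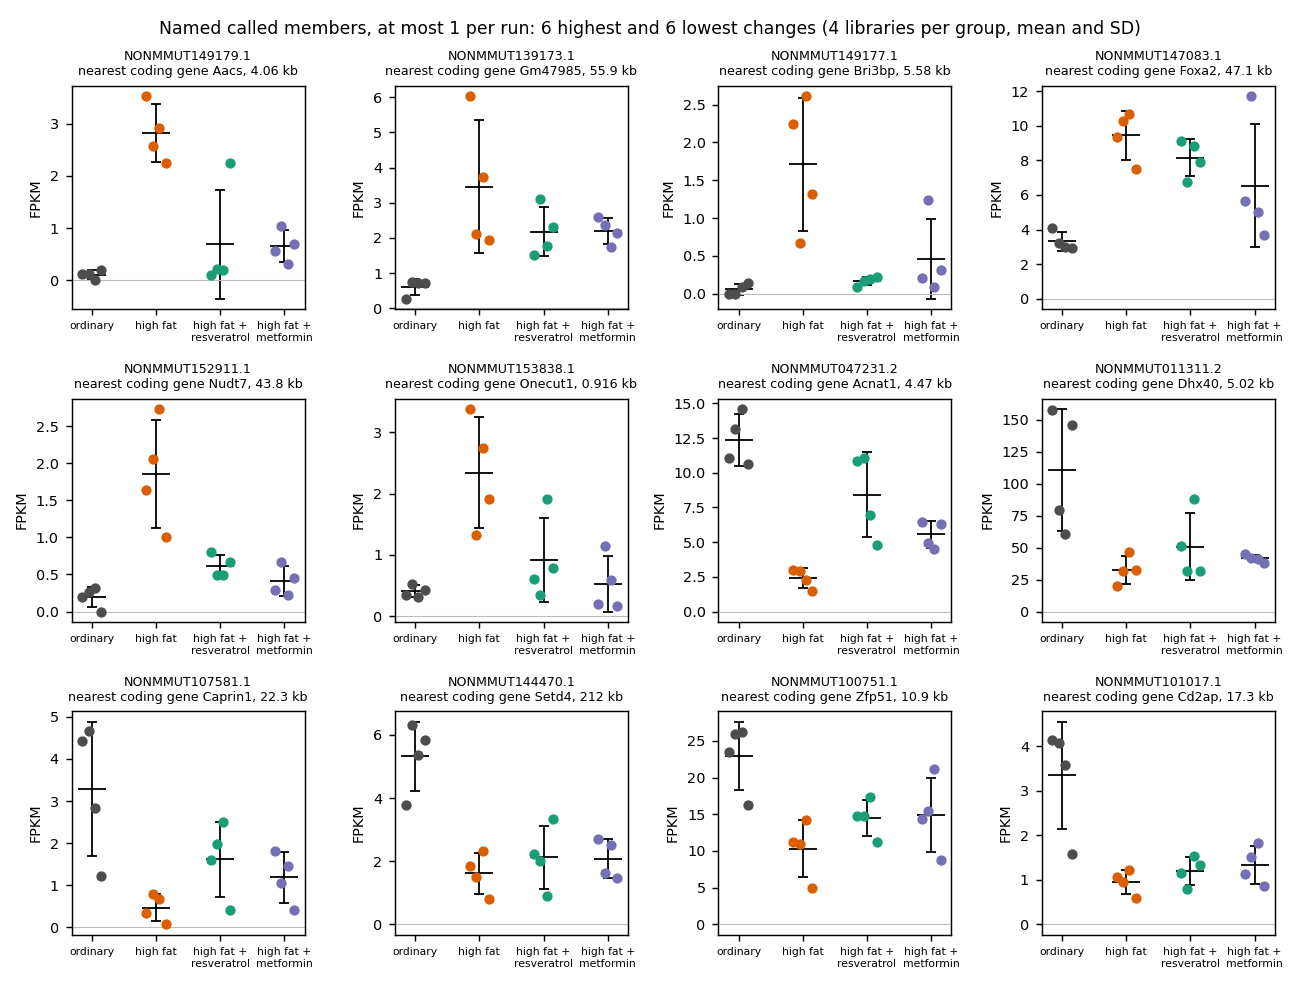
FPKM (vertical axis) of 12 called members in each group (horizontal axis), with 1 point per library and the mean and SD of 4 libraries, for the 6 highest and the 6 lowest changes chosen by the rule for named members, at most 1 per run. NONMMUT149179.1 beside Aacs is at 2.25 to 3.53 FPKM in the high-fat libraries and at 0 to 0.204 on ordinary feed, while NONMMUT047231.2 beside Acnat1 is at 10.6 to 14.6 FPKM on ordinary feed and 1.49 to 3.02 on high-fat feed; NONMMUT152911.1 beside Nudt7 was chosen through its high-fat values alone.

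Liver transcription factor genes stood beside other rising members. The pair beside Onecut1, a factor of hepatocyte and bile duct development, lay 0.916 and 0.186 kb before its start, the second reaching into the window printed above. NONMMUT153838.1 had 0.355, 0.529, 0.311 and 0.434 FPKM on ordinary feed and 3.38, 1.33, 2.75 and 1.91 on high-fat feed (change 1.21, SE 0.25, limma adjusted p = 0.00910). NONMMUT153839.1 went from 0.430 ± 0.138 to 2.38 ± 0.801 FPKM (a change of 1.21, SE 0.26, limma adjusted p = 0.0121). No high-fat value of either overlapped an ordinary-feed value. NONMMUT147083.1, 47.1 kb past the end of Foxa2, a factor that opens liver chromatin, had 4.11, 3.20, 2.97 and 2.95 FPKM on ordinary feed and 9.37, 10.3, 10.7 and 7.49 on high-fat feed. The change was 1.28 (SE 0.24, limma adjusted p = 0.00623), and the resveratrol libraries, at 6.74 to 9.10 FPKM, also lay above all ordinary-feed ones.

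Other members that rose lay beside genes of varied function. NONMMUT132443.1 lay 9.64 kb before Sc5d, an enzyme of cholesterol synthesis, and 206 bases from an exon of Gm36435. It rose from 1.53 ± 0.853 to 3.496 ± 0.665 FPKM (a change of 0.89, SE 0.21, limma adjusted p = 0.0149). NONMMUT083089.1 lay 13.9 kb before Xbp1, a factor of the unfolded protein response, and 208 bases from an exon of Gm11963. It rose from 0.380 ± 0.197 to 1.34 ± 0.492 FPKM (a change of 0.75, SE 0.16, limma adjusted p = 0.0116). NONMMUT139173.1, 55.9 kb from Gm47985, rose from 0.612 ± 0.225 to 3.46 ± 1.90 FPKM (a change of 1.39, SE 0.24, limma adjusted p = 0.00437). NONMMUT146022.1, 30.6 kb past Frmd8, rose from 0.453 ± 0.329 to 2.00 ± 0.539 FPKM (a change of 1.05, SE 0.19, limma adjusted p = 0.00579). The other members of its run lay wholly in exons of the lincRNA Neat1, with changes of 0.32 to 0.66, and were not called.

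NONMMUT149378.1 overlaps the lincRNA gene 5031425E22Rik, 20.7 kb before Kmt2e, a chromatin regulator. It rose from 0.437 ± 0.320 to 1.37 ± 0.459 FPKM (0.74, limma adjusted p = 0.0122) and held its call without each library in turn. Like NONMMUT132443.1 before Sc5d, it lost the call with no filter on low values and with only the 2 groups fitted. Other rises were less firm. NONMMUT108279.1 beside Pigt, part of the enzyme that attaches lipid anchors to proteins, rose by 0.72 (limma adjusted p = 0.0260), and the adjusted p was 0.0615 to 0.0711 on leaving out ordinary library 3 or 4, or else high-fat library 4. NONMMUT146801.1, 388 kb past Rprm, rose by 1.13 (limma adjusted p = 0.0441), and lost its call without any 1 of the 8 libraries (adjusted p 0.0518 to 0.106). NONMMUT114031.1, the member in Gm43444 that nearly matches Glud1, had 10.0, 10.1, 16.5 and 11.3 FPKM on ordinary feed. On high-fat feed it had 16.04, 17.4, 20.1 and 24.0, so the groups overlapped by 1 library. Its change was 0.66 (limma adjusted p = 0.0360), with adjusted p from 0.0538 to 0.0938 on leaving out ordinary library 1, 2 or 4, or else high-fat library 2, 3 or 4. The level of Glud1 itself was not analysed here.

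The most firmly lower member lay beside Acnat1, an enzyme that joins fatty acids to amino acids. Baat was the member's second nearest coding gene, 8409 bases away. NONMMUT047231.2, 4.47 kb before the start of Acnat1 (chr4:49478386-49481012), had 11.03, 13.1, 14.6 and 10.6 FPKM on ordinary feed and 3.02, 2.89, 2.25 and 1.49 on high-fat feed. It fell by 1.98 (SE 0.23, limma adjusted p = 0.000464), the lowest adjusted p of any member in any comparison. A pair before Dhx40, an RNA helicase gene, was higher in level. NONMMUT011311.2 had 157, 79.4, 60.7 and 146 FPKM on ordinary feed and 20.2, 31.4, 46.8 and 32.2 on high-fat feed (-1.68, SE 0.36, limma adjusted p = 0.0117). NONMMUT011310.2 had 35.9, 227, 168 and 33.6 against 9.26, 6.21, 10.4 and 4.53 FPKM (-3.34, SE 0.76, limma adjusted p = 0.0136). These 2 intervals share 1760 bases, yet the ordinary-feed libraries that were high in one were the lower ones in the other, and their levels had an r of 0.54 over the 16 libraries.

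The member that holds Mir802 fell too. NONMMUT144470.1 (chr16:93368269-93370975) overlaps the lincRNA gene 1810044K17Rik, 212 kb past Setd4, and miR-802 is a liver microRNA known for its link to glucose metabolism. Its FPKM was 3.79, 6.32, 5.35 and 5.83 on ordinary feed, 1.84, 1.496, 2.33 and 0.791 on high-fat feed, 2.23, 2.02, 0.905 and 3.34 with resveratrol, and 2.72, 1.61, 2.51 and 1.48 with metformin. All 12 libraries of the high-fat groups were below all 4 of ordinary feed. The change on high-fat feed alone was -1.29 (SE 0.24, limma adjusted p = 0.00651), and this call held under every alternative tried. The member over Mir30c-2, NONMMUT138548.1, had 7.13, 5.33, 5.35 and 5.53 FPKM on ordinary feed and 3.44, 2.77, 3.15 and 1.85 on high-fat feed, again without overlap (-0.86, SE 0.15, limma adjusted p = 0.00430). The members over Mir192 with Mir194-2, microRNAs typical of liver and gut, and over Mir8091 were not called. NONMMUT145792.1 was at 4.97 ± 0.729 on ordinary and 3.46 ± 1.12 FPKM on high-fat feed (-0.44, limma adjusted p = 0.0930), and was called lower without high-fat library 4 (adjusted p = 0.0314). NONMMUT105525.1 was at 1.80 ± 0.423 and 1.55 ± 0.524 FPKM (-0.14, limma adjusted p = 0.491). These are levels of the listed intervals, with no stated strand of counting, and mature microRNAs were not measured. Whether the members are the primary transcripts of these microRNAs was not tested.

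Further lower members lay beside genes of varied function. NONMMUT107581.1 lay 22.3 kb before Caprin1, an RNA-binding protein of stress granules, and 459 bases from an exon of Gm13880. It fell from 3.29 ± 1.60 to 0.466 ± 0.326 FPKM (change -1.48, SE 0.33, limma adjusted p = 0.0126). NONMMUT101017.1, before Cd2ap, an adaptor of the actin skeleton, was at 3.35 ± 1.20 and fell, to 0.956 ± 0.276 FPKM (change -1.11, SE 0.21, limma adjusted p = 0.00602). NONMMUT041542.2, before Ctcfl, the germ cell relative of CTCF, fell from 8.17 ± 1.31 to 3.42 ± 1.22 FPKM (change -1.08, SE 0.20, limma adjusted p = 0.00623). All 3 had groups that did not overlap, and they kept their calls without each library in turn. NONMMUT056584.2, before the trypsin gene Try4, fell by 0.99 (limma adjusted p = 0.00602), NONMMUT153487.1, 521 kb past Pdcd6ip, by 0.95 (0.0149) and NONMMUT008164.2, past Esyt1, by 0.66 (0.00430). NONMMUT100751.1, past Zfp51, fell from 23.0 ± 4.65 to 10.3 ± 3.86 FPKM (-1.14, limma adjusted p = 0.0224), with adjusted p from 0.0503 to 0.0599 on leaving out ordinary library 2 or 3, or else high-fat library 4. NONMMUT150881.1, before Lrfn3, fell from 1.26 ± 0.695 to 0.151 ± 0.0421 FPKM (-0.91, limma adjusted p = 0.0319), with adjusted p from 0.0541 to 0.0895 on leaving out ordinary library 1, 2 or 3, or else high-fat library 2, 3 or 4.

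By distance from the nearest coding gene, with both sides of the gene pooled, the called share was lowest within 1 kb. Within 1 kb, 3 of 137 members rose and 7 fell (7.30% called, background 14.6%). From 1 to 5 kb, 2 of 152 rose and 14 fell (10.5%), and from 5 to 20 kb, 12 of 169 rose and 17 fell (17.2%). From 20 to 100 kb, 20 of 215 rose and 40 fell (27.9%), and beyond 100 kb, 6 of 229 rose and 43 fell (21.4%). Much of the rise in the last 2 classes came from 1 run beside Eipr1: outside it, 20 of 196 members rose and 21 fell at 20 to 100 kb, and 6 of 163 rose and 10 fell beyond 100 kb. The median change was -0.13, -0.08, -0.08, -0.05 and -0.27 from the nearest to the farthest class, and -0.06 in the farthest outside that run. These are shares of members, and members of a run move together, so no test was made across classes. The 20 members that rose at 20 to 100 kb lay in only 9 runs. Most rising members of the run past the end of Foxa2, described below, were among them.

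**Figure D2:**
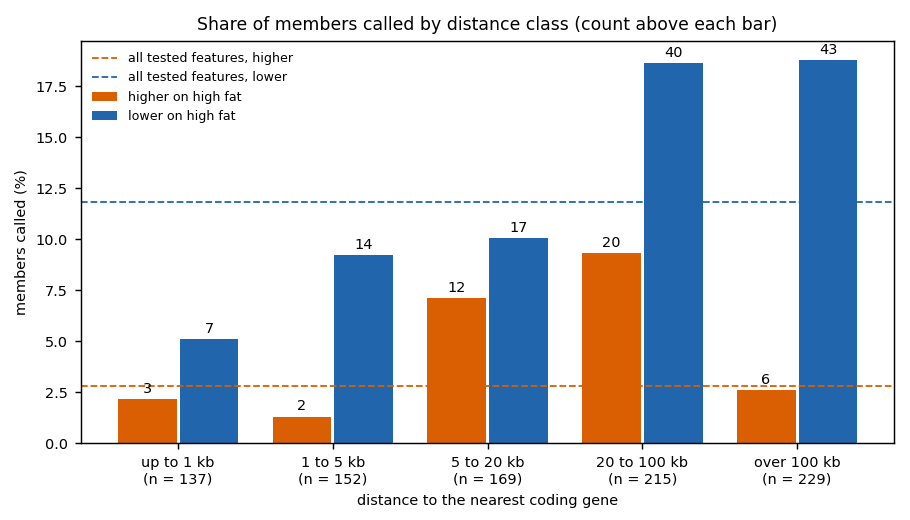
Share of members called between high-fat and ordinary feed (vertical axis, percent) in 5 classes of distance to the nearest coding gene (horizontal axis), with the count above each bar and dashed lines at the shares of all 7413 tested features, 2.83% higher and 11.8% lower. The bar for higher members is tallest at 20 to 100 kb, where 20 of 215 rose, in only 9 runs, and both bars are below the dashed lines within 1 kb.

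The classes also differed in level, length and overlap with non-coding genes, and the part of these in the called shares was not tested. The median of the mean FPKM was 1.34, 1.43, 1.40, 1.52 and 2.60 from the nearest to the farthest class, and the median length 1293, 1076, 1095, 1029 and 821 bases. The share overlapping a non-coding gene body was 18.98%, 23.7%, 42.0%, 56.7% and 68.1%. With median-ratio scaling, the counts higher and lower were 7 and 1 within 1 kb, 11 and 7 at 1 to 5 kb, 18 and 9 at 5 to 20 kb, 26 and 24 at 20 to 100 kb, and 19 and 17 beyond. Without high-fat library 4 they were 3 and 2, 6 and 8, 11 and 10, 18 and 18, and 3 and 9. The share called, pooled over sides, thus stayed lowest within 1 kb in both settings, whereas the balance of higher and lower calls within a class did not keep its sign. The order differed by side of the gene. Before the start, the called share was 10.96%, 13.95%, 19.5%, 11.1% and 4.88% from the nearest to the farthest class, so that it was lowest beyond 100 kb. Past the end, 0 of 64 members rose and 2 fell within 1 kb, while 15 of 116 rose and 34 fell at 20 to 100 kb (15 and 15 of 97 outside the Eipr1 run) and 3 of 106 rose and 40 fell beyond (3 and 7 of 40 outside it). The 15 that rose past the end at 20 to 100 kb lay in 4 runs. The difference between sides was not tested.

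**Figure D3:**
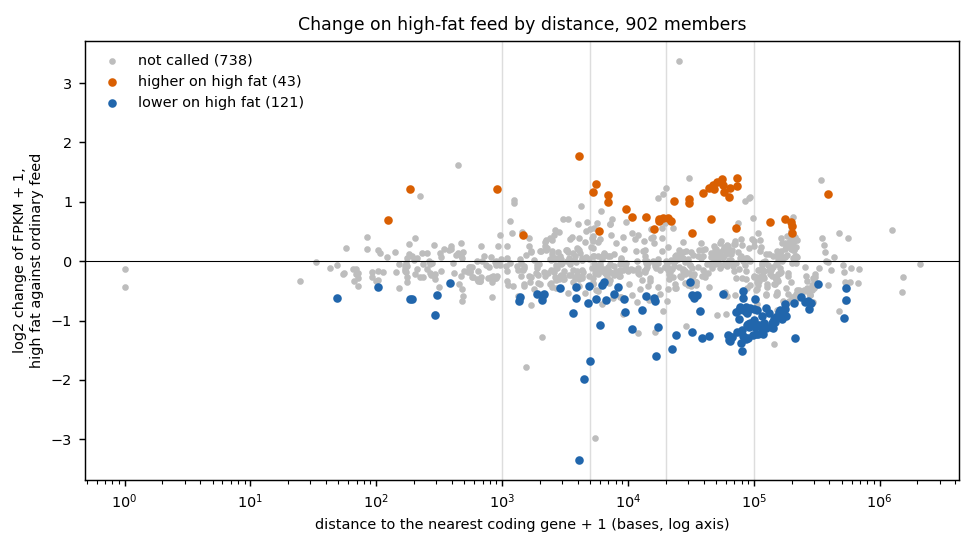
Change from ordinary to high-fat feed on the log2(FPKM + 1) scale (vertical axis) against distance to the nearest coding gene plus 1 base (horizontal log axis), 1 point per member, with 43 called higher, 121 called lower and 738 not called. The dense group of lower points around 100 kb is the run beside Eipr1, and the uncalled point at 3.38 is NONMMUT147944.1, whose values switch between libraries.

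The 5 longest runs behaved differently from each other. In the run beside Eipr1 (chromosome 12, 28902108 to 29178061), 52 of 85 members fell and none rose at a limma adjusted p under 0.05, with a median change of -0.88. The median member was at 2.91, 2.85, 2.72 and 1.60 FPKM in the ordinary-feed libraries and at 0.543, 1.33, 1.17 and 0.651 in the high-fat ones, without overlap. It was at 2.37, 2.17, 3.13 and 0.677 with resveratrol and 0.830, 1.57, 1.07 and 0.676 with metformin, so 3 resveratrol libraries lay above the lowest ordinary-feed library, 1 of them above the highest, and 1 lay below all of them. The counts called lower were 23 with median-ratio scaling and 9 without high-fat library 4, while the median stayed at -0.72 and -0.82. NONMMUT086669.1, 38.9 kb from Eipr1, fell by 1.30 (limma adjusted p = 0.0300), with adjusted p from 0.0588 to 0.0766 on leaving out ordinary library 1, 2 or 3, or else high-fat library 1 or 4. NONMMUT086703.1, farther along, went from 3.39 ± 0.725 to 1.04 ± 0.396 FPKM (-1.11, limma adjusted p = 0.0124).

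In the run of 20 members past the end of Foxa2, over the lincRNA gene 9030622O22Rik, 12 rose and none fell, with a median change of 1.08. The median member was at 5.43, 4.94, 2.84 and 2.79 FPKM on ordinary feed and at 9.36, 12.05, 10.7 and 9.04 on high-fat feed. Without high-fat library 4, 11 rose, and with median-ratio scaling 18. The 4 most abundant members of the run lay 3.05 to 23.3 kb from Foxa2. The change was 0.71, 0.54 and 0.62 in the 3 within 7.15 kb, which did not pass the test, and 1.02 at 23.3 kb (NONMMUT147090.1, limma adjusted p = 0.0188, and 0.0538 without ordinary library 3). NONMMUT147079.1, which overlaps the RefSeq promoter window of 9030622O22Rik, rose by 1.16 (limma adjusted p = 0.0384), with adjusted p from 0.0551 to 0.106 on leaving out ordinary library 2, 3 or 4, or else high-fat library 2, 3 or 4.

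In the run of 17 members beside Ogfrl1, which includes the member over Mir30c-2, 13 fell and none rose (median -0.79), and 8 fell without high-fat library 4. Its member with the lowest p, NONMMUT138543.1, had 9.76, 6.94, 6.50 and 7.63 FPKM on ordinary feed and 3.66, 2.74, 3.95 and 2.33 on high-fat feed (-1.07, SE 0.18, limma adjusted p = 0.00430). The run of 80 members between Klf14 and Mkln1, over the lincRNA Lncpint, changed little: 3 rose, none fell and the median was 0.09, with 15 higher under median-ratio scaling. The 20 members beside Arhgap32 had a median of 0.19 and no call. Adjacent members had a median r of 0.93 in the runs beside Eipr1 and Foxa2, 0.86 beside Ogfrl1, 0.74 beside Arhgap32 and 0.68 between Klf14 and Mkln1. Counted by run, 26 runs held a member that rose, 45 a member that fell, and 0 held both.

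**Figure D4:**
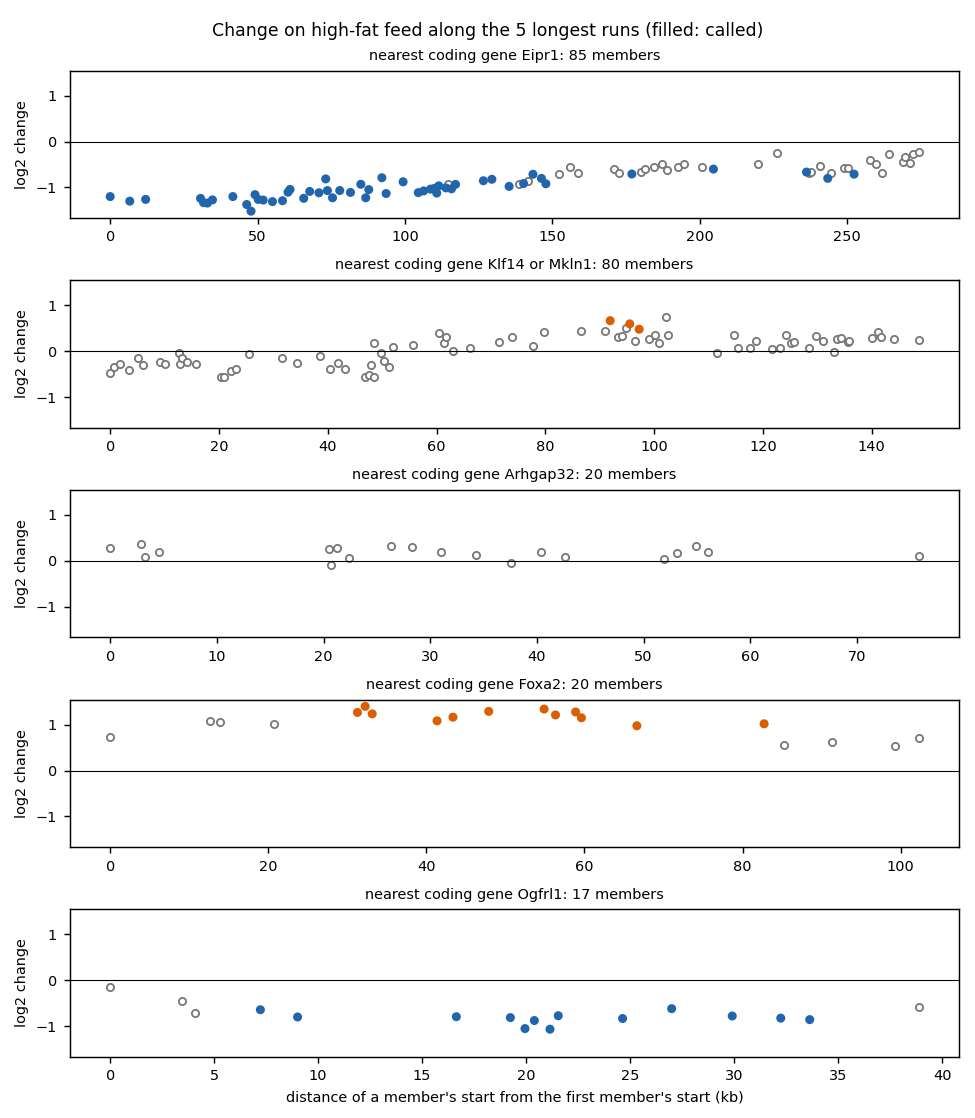
Change from ordinary to high-fat feed on the log2(FPKM + 1) scale (vertical axis) of each member in the 5 longest runs, by distance of its start from the first member's start in kb (horizontal axis), filled where called. All 85 points beside Eipr1 lie below 0 (-1.52 to -0.22) and all 20 beside Foxa2 above it (0.54 to 1.40), while the 80 between Klf14 and Mkln1 run from -0.57 to 0.75.

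For 116 members, a tested single-interval transcript lay mostly in exons of the nearest coding gene, and the most abundant such transcript was set beside the member. The median r between member and neighbour over 16 libraries was 0.35 within 1 kb (14 pairs), 0.24 at 1 to 5 kb (18), 0.29 at 5 to 20 kb (26) and 0.48 at 20 to 100 kb (27). With each library's median subtracted these were 0.23, 0.14, 0.27 and 0.19. The pairs share libraries and depth, and some share a neighbour. The 27 pairs at 20 to 100 kb came from only 10 genes. The 31 pairs beyond 100 kb came from 7 genes, and most shared 1 neighbour, at Mkln1. Their median r was -0.07, and -0.45 with each library's median subtracted. Member and neighbour were both called lower in 2 pairs. NONMMUT016489.2, 0.387 kb past Mplkip, changed by -0.36 (limma adjusted p = 0.0426) and its neighbour NONMMUT016486.2 went from 2.93 ± 0.498 to 1.71 ± 0.398 FPKM. The first of these was not called without any 1 of the 4 ordinary-feed libraries or high-fat library 3 or 4 (adjusted p 0.0636 to 0.106). The other pair was at Insig2, which holds back sterol synthesis: NONMMUT078558.1, 9.34 kb past its end, fell from 1.11 ± 0.441 to 0.348 ± 0.216 FPKM, and NONMMUT002394.2 from 193 ± 32.8 to 85.9 ± 36.2 FPKM.

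The genes of metabolism and cell identity listed for this tissue were seldom the nearest coding gene of a member within 50 kb. Each member was counted for its nearest coding gene only, so members nearer to another gene are left out. Of 43 genes of fatty acid and triglyceride synthesis, Aacs alone had members, the pair described above. Both were called higher, but 1 of them had passed the level threshold through the high-fat group alone. NONMMUT149177.1, whose nearest coding gene is Bri3bp, also lay 8861 bases from Aacs. Of 30 cholesterol genes, 3 had 5 members: the one at Sc5d rose, 1 of 3 at Insig2 fell (-0.64, limma adjusted p = 0.0315, and 0.0718 to 0.0900 on leaving out ordinary library 2 or 3, or else high-fat library 3 or 4), and the one at Insig1 changed by -0.15. Of 32 genes of fatty acid oxidation and ketogenesis, 4 had 11 members and only the one at Acnat1 was called. The member 0.477 kb past Cpt1a, which controls the entry of fatty acids into mitochondria, had 13.9, 11.8, 11.2 and 11.9 FPKM on ordinary feed and 9.39, 7.72, 9.78 and 3.80 on high-fat feed. Those groups did not overlap, but its change of -0.67 missed the threshold (NONMMUT033416.2, limma adjusted p = 0.0557), and passed it without high-fat library 1 or 3 (lowest adjusted p 0.0401). The 7 members at Ppara, the nuclear receptor that drives fatty acid oxidation, were not called, and the one 0.287 kb past its end was among the most abundant, at 65.4 ± 12.2 and 79.2 ± 16.8 FPKM (NONMMUT024514.2, 0.27, limma adjusted p = 0.388).

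Liver transcription factors were the list with the most members, 18 at 8 of 28 genes. Of these members, 8 rose and none fell, against 2.83% higher and 11.8% lower over all tested features. The calls came from few places: 5 of the 8 in the Foxa2 run, the adjacent pair beside Onecut1, and NONMMUT104736.1 before Onecut2. Adjacent members are not independent, so the count does not describe the list as a whole. The member 0.222 kb before Bcl6, a repressor, changed by 1.09 without passing the test (NONMMUT026006.2, limma adjusted p = 0.0664). The members beside Cebpa (0.29 and 0.40), Nr5a2 (0.26) and Prox1 (0.04) were not called. Of 31 glucose and insulin genes, Gpt, alanine aminotransferase, had a member 0.0480 kb before its start that fell (-0.62, limma adjusted p = 0.0289, and 0.0553 to 0.0837 on leaving out ordinary library 1 or 2, or else high-fat library 3 or 4), and the one at Egfr did not pass (0.20). The 5 members before Fgl1, which encodes a protein secreted by hepatocytes, had no call by limma, with changes of 0.26 to 0.94. Of 37 bile acid and drug genes, Cyp2e1 had 1 member, which rose: its values lay between 0.486 and 1.88 FPKM on ordinary feed and between 1.34 and 4.59 on high-fat feed, with overlap (NONMMUT151923.1, 0.99, limma adjusted p = 0.0374), with adjusted p from 0.0568 to 0.0971 on leaving out ordinary library 1, 3 or 4, or else high-fat library 1, 2 or 3. Clock genes and the marker genes of Kupffer cells, stellate cells, endothelium, lymphocytes and erythroid cells were the nearest coding gene of 0 members within 50 kb.

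Overlap with promoters was tabulated for the members, since RefSeq windows from 250 bases before to 50 after a start were given. Windows of RefSeq genes were touched by 54 members, and 6 of these passed the test for high-fat against ordinary feed, a share no higher than the background of 14.6%. Besides those beside Onecut1 and Foxa2 and 1 in each of the runs beside Eipr1 and Pdcd6ip, NONMMUT145203.1 at Efna5, a membrane-bound guidance ligand, rose by 0.69 (limma adjusted p = 0.0267, and 0.0529 to 0.0680 on leaving out ordinary library 1 or 2, or else high-fat library 4). NONMMUT008521.2 at Tbrg4 changed by -0.43 (limma adjusted p = 0.0360, and 0.0525 to 0.0934 on leaving out ordinary library 1, 2 or 3, or else high-fat library 3 or 4).

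The drug comparisons share the high-fat group, so each is given by its own values. With resveratrol, 1 of 902 members was called against high-fat feed alone (background 0.0809%), and 181 were at an unadjusted p under 0.05, with a median change of 0.14 against 0.13 for all features. The member was the one beside Acnat1, at 10.8, 11.1, 6.97 and 4.80 FPKM with resveratrol against 3.02, 2.89, 2.25 and 1.49, without overlap. It rose by 1.43 (SE 0.23, limma adjusted p = 0.0314), with adjusted p from 0.0719 to 0.141 without high-fat library 3 or 4 or resveratrol library 1 or 2. Leaving out resveratrol library 4 gave 28 calls among the members, 26 higher and 2 lower. With median-ratio scaling there were 6 calls, 1 higher and 5 lower.

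With metformin, 0 members were called by limma against high-fat feed (background 0.0270%), 93 were at an unadjusted p under 0.05, and there was 1 call, lower, with median-ratio scaling or without high-fat library 4. The lowest adjusted p (limma, 0.0767) was that of NONMMUT152911.1, 43.8 kb before Nudt7, a peroxisomal enzyme that splits coenzyme A. It had 1.64, 2.06, 2.73 and 1.00 FPKM on high-fat feed and entered the set through these 4 libraries alone, so its lower values in the other groups were fixed by the choice and say nothing of the drugs. The member beside Acnat1 had 6.47, 4.92, 4.51 and 6.30 FPKM with metformin, again above all 4 high-fat libraries, and missed the threshold (0.95, limma adjusted p = 0.227). Between resveratrol and metformin 0 members were called by limma (background 0%), 91 were at an unadjusted p under 0.05, and the lowest adjusted p was 0.755. Leaving out resveratrol library 1 gave 1 call.

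Against ordinary feed, 3 members were called with resveratrol (background 0.283%; 128 at an unadjusted p under 0.05) and 1 with metformin (background 0.297%; 211 at an unadjusted p under 0.05). NONMMUT150355.1, over Lncpint, had 3.77, 3.30, 3.77 and 3.37 FPKM on ordinary feed and 6.28, 5.66, 6.38 and 8.63 with resveratrol (0.75, limma adjusted p = 0.0425). The member beside Pigt rose by 1.03 (limma adjusted p = 0.0377) and the one past Esyt1 fell from 1.57 ± 0.330 to 0.659 ± 0.141 FPKM (-0.63, limma adjusted p = 0.0332). The calls at Lncpint and Pigt were lost without any 1 of the 8 libraries (adjusted p 0.0581 to 0.121 and 0.0546 to 0.102), and that at Esyt1 without ordinary library 1, 2 or 3 or resveratrol library 1, 2 or 4 (0.0660 to 0.0923). With metformin, NONMMUT150635.1, 114 kb past Cxcl12, a chemokine gene, had 1.61, 1.504, 1.15 and 2.38 FPKM against 0.659, 0.591, 0.361 and 0.188 on ordinary feed (0.87, limma adjusted p = 0.0480). That call was lost without ordinary library 2, 3 or 4 or metformin library 1, 2 or 4 (0.0543 to 0.127). Median-ratio scaling gave 7 calls with resveratrol and 13 with metformin.

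The most abundant member was NONMMUT033452.2, 2.87 kb before Gstp3, a glutathione transferase gene, at 557, 613, 662 and 526 FPKM on ordinary feed and 451, 437, 471 and 371 on high-fat feed. The groups did not overlap, and with resveratrol and metformin it was at 472 ± 61.9 and 434 ± 53.7 FPKM. It fell by 0.45 (limma adjusted p = 0.0475), a call that did not hold without any 1 of the 8 libraries. Several other abundant members lay over copies of coding or mitochondrial genes. NONMMUT000380.2 on chromosome 1 matched mt-Co1 over all of its 263 bases. NONMMUT150590.1, at 374 ± 25.2 FPKM on ordinary and 312 ± 71.2 on high-fat feed, overlaps Tpt1-ps3. It has fewer than 60 bases in any 1 GENCODE exon, so it was not compared with coding transcripts. Of 47 members with at least 90% of their bases in 1 GENCODE exon, 24 matched a coding transcript over at least 90% of their length, with identities of 97.6% to 100% (median 99.2%). NONMMUT114031.1, in Gm43444, was the only one of the 24 called between high-fat and ordinary feed. NONMMUT154175.1, the member in Gm6274 that nearly matches Rpl7, was at 14.1 ± 2.32 and 14.3 ± 2.99 FPKM. Where a copy differs at so few bases, reads of the coding transcript can be assigned to it.

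Some members switched between high and near-zero values among libraries of 1 group. In 15 members, a group held both a library at 5 FPKM or more and 1 at 0.5 or less, in 12 of them in more than 1 group. Of the 15, 10 lay over a processed pseudogene, and limma called 0 of them for high-fat against ordinary feed. NONMMUT147944.1, over Gm12918 and identical to Rpl13 over 313 bases, had 110.0, 0.249, 0.304 and 159 FPKM on ordinary feed, 109.5, 139, 127 and 169 on high-fat feed, 0.302, 122, 139 and 136 with resveratrol, and 136, 136, 139.6 and 0.287 with metformin. Its 16 values thus fall in 2 ranges, with 4 libraries near 0, and its change of 3.38 between high-fat and ordinary feed had an SE of 1.96. NONMMUT044277.2, over Terc, the telomerase RNA, was at 8.32, 0, 0 and 0 FPKM on ordinary feed and 0, 7.69, 9.48 and 1.38 on high-fat feed. The source of this switching was not tested.

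**Figure D5:**
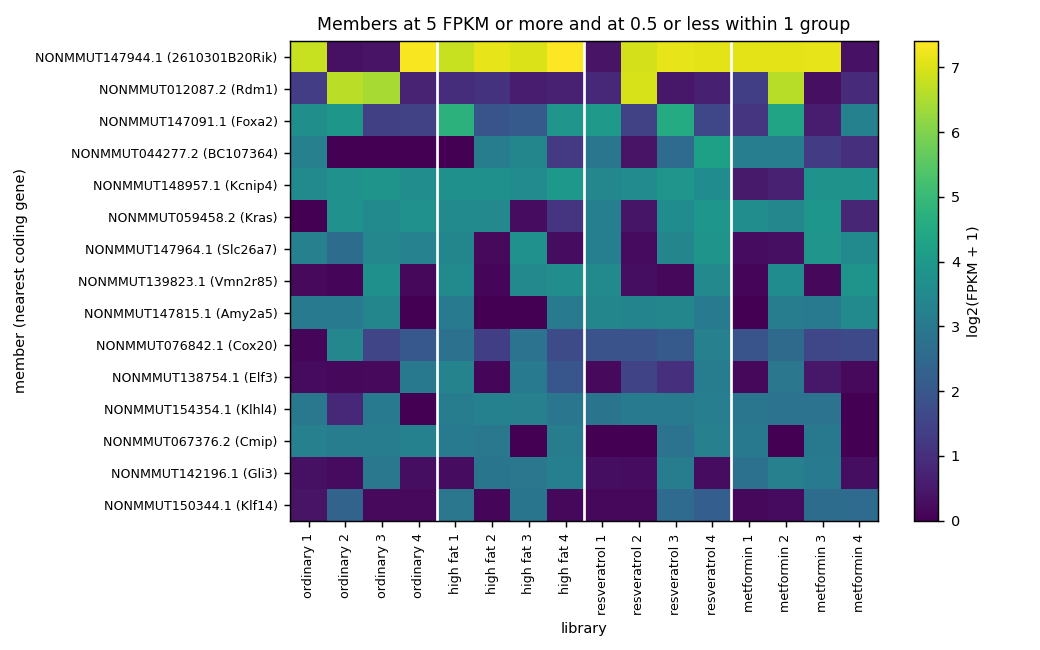
Log2(FPKM + 1) (color) of the 15 members that had a library at 5 FPKM or more and another at 0.5 or less in the same group, in each of 16 libraries (columns, white lines between groups). The top row, NONMMUT147944.1, is near 0 in ordinary libraries 2 and 3, resveratrol library 1 and metformin library 4, and at 109.5 FPKM or more in the other 12.

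The members farthest from coding genes had no changes that passed the test. NONMMUT066884.2, 1526 kb past Cdh11, had 22.1, 18.6, 21.9 and 25.03 FPKM on ordinary feed and 23.7, 23.1, 21.6 and 8.36 on high-fat feed, where library 4 was far below the others. NONMMUT145375.1, 2084 kb from Pik3c3, was at 1.06 ± 0.203 and 1.02 ± 0.403 FPKM. NONMMUT148967.1, 1503 kb past Stim2, was at 2.35 ± 1.505 and 1.54 ± 1.69 FPKM and at 0.0826 to 0.243 in all 4 metformin libraries (metformin against ordinary feed -1.41, limma adjusted p = 0.158). This member lay wholly in the processed pseudogene Gm15975 and matched the coding gene Tent2 over 328 of its 525 bases (98.78% identity). Its level also varied within the resveratrol group, with library 3 at 0.2745 FPKM and the others at 3.15 to 3.41.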

How the data were processed

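Liver RNA-seq of 16 libraries in 4 groups was taken from the FPKM values that the authors deposited for 51024 non-coding transcripts. The submitters' processing notes name Bowtie 0.12.2, Cufflinks 2.1.1 and the build GRCm38 (mm10), without strand or annotation release. FPKM values were whole multiples of what 1 read is worth (99.9882% or more of them, to within 0.05 of a read), which gave depths of 17.2 to 31.1 M reads. Ensembl transcripts were summed per gene and all others kept singly. Intervals were placed against GENCODE M21. Features at 1 FPKM or more in at least 4 libraries were tested on log2(FPKM + 1), so fold changes of low transcripts are understated, with limma 3.58.1 (R 4.3.3, empirical Bayes with trend), 4 groups in 1 fit with 12 residual degrees of freedom and Benjamini-Hochberg adjustment over 7413 features. Calls had an adjusted p under 0.05. Tables were handled with pandas 2.3.3 and numpy 2.4.6, and the fit was tested on simulated data. The members and gene lists were chosen with earlier results of these data known.

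Named members are, for high-fat against ordinary feed, the called members with the highest and lowest changes among those whose groups did not overlap, with a mean of at least 1 FPKM in the higher group and at most 1 per run. To these were added the most abundant, the most abundant per distance class, the farthest, those near listed genes and those at the threshold. Members shown for a microRNA, promoter, copy or neighbour, the printed sequences, and 3 alternatives (1 member per run, members outside the run beside Eipr1, and the distance classes under other scaling or without high-fat library 4) were chosen after the values were seen. No genome sequence was used, so base composition and repeats of the members were not analysed here. Alternatives covered the pseudocount, filters, scaling, the groups fitted, merged members and leaving out each library. Results for some listed genes are not reported here.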

Additional observations from a re-analysis of the deposited data

Results flagged for a closer look

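In 288 groups of 4 libraries, 10.4% held 1 library set apart from the other 3 by a gap that is large for the group's range. Independent, normally distributed values would give about 1 in 20. The values here were FPKM without a log, and 20 of the 30 set apart were high. Members of a run also share libraries, so the share cannot be read as an excess over that rate. High-fat library 4 had 487 members at 1 FPKM or more (others 639 to 670) and a median member FPKM of 1.10 (others 1.49 to 1.52). It also stood apart at Lrp1b (417 FPKM, others 149 to 175, NONMMUT037053.2), Cdh11 (8.36, others 21.6 to 23.7, NONMMUT066884.2), Prok2 (205, others 340.0 to 353, NONMMUT150590.1) and Efna5 (2.86, others 0.984 to 1.28, NONMMUT145203.1). NONMMUT037053.2 has 113 bases (40.5%) in the processed pseudogene Gm13456, identical there to the coding gene Eef1a1. High-fat library 2 stood apart at Pik3c3 (1.62 FPKM, NONMMUT145375.1).

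Resveratrol library 3 was high at Egfr (3.57 FPKM, others 1.16 to 1.56, NONMMUT008652.2), Pigt (2.91, NONMMUT108279.1) and 3 members before Fgl1 (2.48, 4.56 and 1.86 FPKM at NONMMUT065392.2, NONMMUT128539.1 and NONMMUT152138.1), and low at Stim2 (0.2745, NONMMUT148967.1). Resveratrol library 4 was high at both Aacs members (2.24 and 0.996 FPKM at NONMMUT149179.1 and NONMMUT149180.1), Ppara (89.1, NONMMUT024514.2) and Pik3c3 (1.40, NONMMUT145375.1), and low at the Mir192 member (2.04, NONMMUT145792.1). Resveratrol library 1 was low at NONMMUT147944.1 (0.302 FPKM) and high at Cyp2e1 (3.07, NONMMUT151923.1), and library 2 was high at Sc5d (4.08, NONMMUT132443.1).

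On ordinary feed, library 1 was high at Terc (8.32 FPKM, others 0, NONMMUT044277.2) and at the Mir30c-2 member (7.13, NONMMUT138548.1) and low at Gm47985 (0.276, NONMMUT139173.1), and library 4 was low at Eipr1 (2.31, NONMMUT086703.1). With metformin, library 3 was high at Dhx40 (103 FPKM, others 6.67 to 11.7, NONMMUT011310.2), library 2 at the Foxa2 run (12.1, NONMMUT147079.1), library 1 at Stim2 (0.243, NONMMUT148967.1) and library 4 at Bri3bp (1.16, NONMMUT149178.1), while library 4 was low at NONMMUT147944.1 (0.287).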

How the results depend on the processing

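For high-fat against ordinary feed, the 164 calls became 25 with no filter on low values, 105 with only the 2 groups fitted, 86 when median-ratio scaling left out high-fat library 4, 64 with 1 member per run, and 77 to 147 with 1 library left out (77 without ordinary library 2 or 3, 94 without ordinary library 1, 88 without high-fat library 4). Higher members were 26.2% of the calls, but 58.3% with median-ratio scaling, 51.2% with quantile normalization, 46.6% without high-fat library 4, 74.4% with both changes and 38.3% without ordinary library 1. For resveratrol against high-fat feed, 1 call became 0 with no filter or only 2 groups, 6 with median-ratio scaling, 5 with quantile normalization and 0 to 28 with 1 library left out. For metformin against high-fat feed, 0 calls became 1 with median-ratio scaling, with or without high-fat library 4, 1 with quantile normalization and 0 to 1 with 1 library left out. For resveratrol against metformin, leaving out 1 library gave 0 to 1. For resveratrol against ordinary feed, 3 calls became 0 with no filter, 7 with median-ratio scaling, 5 with quantile normalization and 0 to 3 with 1 library left out. For metformin against ordinary feed, 1 call became 0 with no filter, 2 with the stricter filter or only 2 groups, 13 with median-ratio scaling or quantile normalization and 0 to 8 with 1 library left out. The median distance of 18.7 kb was 1.61 kb to any GENCODE exon. Where no filter was used more features were tested; otherwise the cause was not tested. Of 41 members tested singly and called between high-fat and ordinary feed, 2 of which passed the filter through the high-fat group alone, 19 held their call under every alternative, 26 held it without each library in turn, 22 lost it with no filter and 13 without high-fat library 4; none changed sign. No paired analysis was possible because the labels give no replicate numbers. Members had a median of 27.0 to 55.0 reads in a library, which limits small changes.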
